A study of Mus musculus with 9 samples.

Results

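The GIMAP genes (GTPases of the immunity-associated protein family) encode small guanine nucleotide-binding proteins of lymphocytes. The 8 mouse genes Gimap1, Gimap3, Gimap4, Gimap5, Gimap6, Gimap7, Gimap8 and Gimap9 were taken by symbol from a table of raw read counts. All 8 had a row, out of 50508 rows in all. Expression was compared among 3 splenic populations, TDC, conventional DC (dendritic cells) and conventional T cells, with 3 libraries each. TDC is the submitters' own name for a population, and the labels do not spell it out. All 9 libraries came from untreated, naive mice, 8 weeks old and homozygous for the Zbtb46-GFP reporter allele, so no population without that allele was compared. Zbtb46 is a transcription factor of conventional DC, and GFP marks cells in which its locus is active. Each library was made from the pooled spleens of several mice, 5 in replicate 1 and 6 in replicates 2 and 3. The sources used here do not state the sorting gates.

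GIMAP proteins share a GTP-binding domain, and several are anchored to the membranes of organelles such as the lysosome, endoplasmic reticulum or mitochondrion. They are known for their part in the survival and quiescence of peripheral lymphocytes. Loss of Gimap5 in mice and in the BB rat leaves few T cells, and loss of Gimap1 in mouse lymphocytes removes mature T and B cells. The genes lie in 1 cluster on mouse chromosome 6, in the order Gimap8, Gimap9, Gimap4, Gimap6, Gimap7, Gimap1, Gimap5 and Gimap3. Gimap6 and Gimap3 are transcribed from the minus strand and the other 6 from the plus strand.

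Because the 8 genes moved together between populations, their promoter windows are shown for 4 members. They are Gimap4, a member abundant in T cells, Gimap6, the most abundant member in all 3 populations, Gimap7, the member lowest in TDC, and Gimap1, which has an antisense neighbour. Each window is the RefSeq sequence (GRCm38.p6) from 250 bases before to 50 bases after an annotated start, read 5′ to 3′ on the gene's strand. The end of the window was found in a GENCODE M21 transcript of the same gene for Gimap7 and Gimap1, but not for Gimap4 or Gimap6. Capitals mark matches, on either strand, to the core letters bound by RUNX factors (TGTGGT) or ETS factors (GGAAGT).
Gimap4, chr6:48684328-48684627, plus strand: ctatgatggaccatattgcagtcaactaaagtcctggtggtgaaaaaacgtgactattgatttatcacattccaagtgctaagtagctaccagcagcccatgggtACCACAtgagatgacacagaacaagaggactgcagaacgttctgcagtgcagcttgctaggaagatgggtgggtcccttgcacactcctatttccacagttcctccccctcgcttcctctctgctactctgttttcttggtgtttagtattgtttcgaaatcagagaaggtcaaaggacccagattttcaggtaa
Gimap6, chr6:48708195-48708494, minus strand: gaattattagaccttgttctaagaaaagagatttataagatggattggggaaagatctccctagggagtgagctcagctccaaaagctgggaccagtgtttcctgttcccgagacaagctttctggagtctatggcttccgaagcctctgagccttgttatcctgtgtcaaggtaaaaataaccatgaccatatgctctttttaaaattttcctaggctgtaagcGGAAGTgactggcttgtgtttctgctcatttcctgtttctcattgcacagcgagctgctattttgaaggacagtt
Gimap7, chr6:48718371-48718670, plus strand: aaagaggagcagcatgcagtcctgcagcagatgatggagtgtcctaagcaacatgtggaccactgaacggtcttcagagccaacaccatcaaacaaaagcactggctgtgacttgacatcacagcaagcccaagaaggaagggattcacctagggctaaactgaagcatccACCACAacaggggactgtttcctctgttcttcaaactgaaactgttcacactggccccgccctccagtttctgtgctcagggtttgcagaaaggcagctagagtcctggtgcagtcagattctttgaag
Gimap1, chr6:48738797-48739096, plus strand: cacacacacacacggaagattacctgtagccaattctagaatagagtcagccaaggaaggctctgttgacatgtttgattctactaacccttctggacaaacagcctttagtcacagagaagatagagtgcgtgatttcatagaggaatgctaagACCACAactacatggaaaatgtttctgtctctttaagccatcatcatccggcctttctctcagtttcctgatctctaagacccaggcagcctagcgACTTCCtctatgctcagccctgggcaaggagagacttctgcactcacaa

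RefSeq gave 9 windows for the 8 genes, since Gimap8 had 2. The RUNX letters were in 3 of the 9, those of Gimap4, Gimap7 and Gimap1, against 16.8% of all 32851 mouse windows. The ETS letters were in 4, those of Gimap9, Gimap6, Gimap1 and Gimap5, against 23.8% of all windows. The letters CTTTGA of the TCF/LEF core were in 2 windows, Gimap4 and Gimap7, against 16% of all, and 0 of the motif matches in these windows overlapped another. The GATA core AGATAA was in none, against 11.2% of all, and TATAAA in 1, Gimap6, against 13.6% of all. All motifs were sought on either strand. The TATAAA match of Gimap6 was on the strand opposite the gene, near the upstream end of the window. The windows held 2 to 8 CpG dinucleotides each, and the median of all windows was 7. Motif matches are descriptions of these letters, and no factor's binding was measured here.

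The libraries held 14594850 to 22677130 assigned reads in TDC, 14973484 to 25676640 in DC and 10986544 to 18071425 in T cells. Levels are given as CPM, read counts scaled to the library size with TMM factors, on which 1 read was worth 0.0383 to 0.0897 CPM. The protocol is a 3′ tag method, in which reads mark the ends of transcripts, so levels of different genes are set side by side on this CPM scale with no correction for length. The T cell libraries carried the T cell receptor genes at high levels. Their list of 16 genes summed to 134 to 444 CPM in TDC, 30.2 to 30.6 CPM in DC and 11031 to 14974 CPM in T cells. The 8 markers of conventional DC summed to 232 to 515 CPM in TDC, 2328 to 3237 CPM in DC and 99.96 to 179 CPM in T cells. Nearly all of the T cell sum was Dpp4, with 173, 95.9 and 98.4 CPM, while Clec9a, Cd209a and Batf3 had 0 reads in T cells. The 10 markers of red pulp macrophages, which the label TDC does not name, summed to 48881 to 80580 CPM in TDC, 666 to 1009 CPM in DC and 8.93 to 12.6 CPM in T cells. Their part in the GIMAP values of TDC was not tested.

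GIMAP transcripts were most abundant in T cells, scarce in TDC and scarcer still in DC. The 8 genes together had 135.5, 55.3 and 197 CPM in the 3 TDC libraries, 15.1, 1.81 and 0.179 CPM in the 3 DC libraries, and 5650.5, 6304 and 5644 CPM in the 3 T cell libraries. The means were 129 ± 71.2 CPM in TDC and 5.69 ± 8.17 CPM in DC, against 5866 ± 379.6 CPM in T cells (SD, n = 3 each). The 3 groups did not overlap. Every TDC library lay between the DC and the T cell libraries, at 0.943% to 3.37% of the T cell mean. In such bulk libraries, fewer cells of a type and less RNA per cell cannot be told apart.

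**Figure D1:**
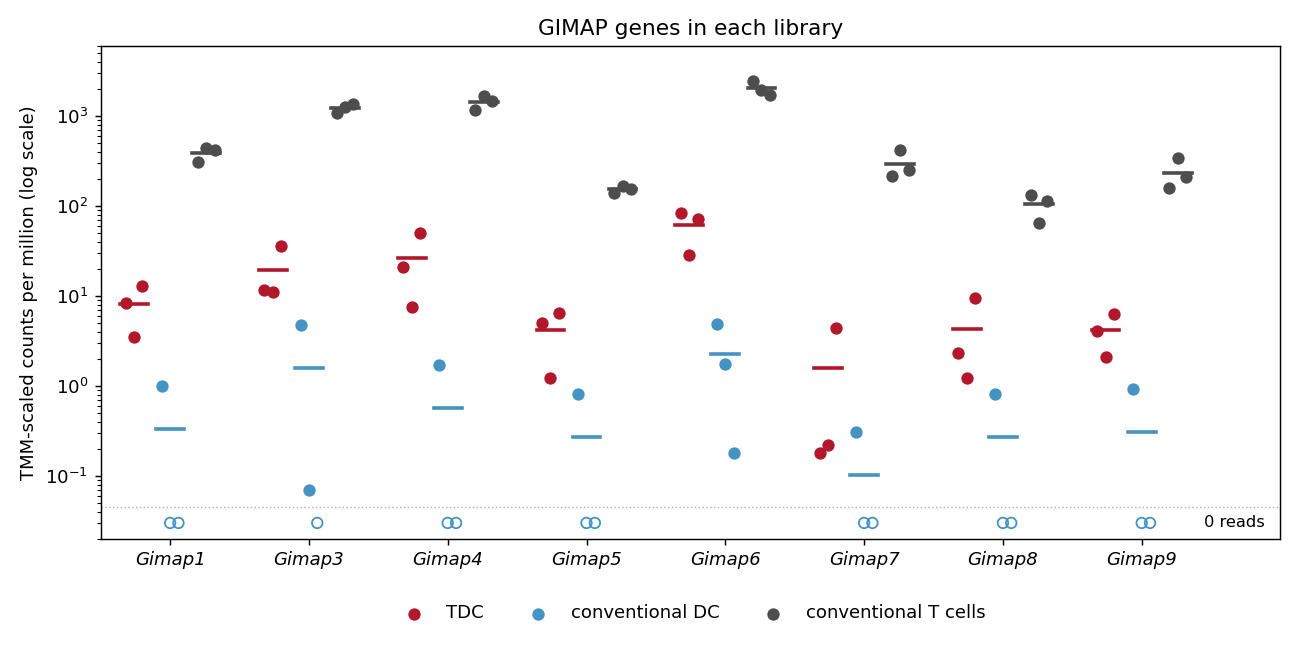
CPM scaled with TMM factors (log scale) of the 8 GIMAP genes in each TDC, conventional DC and conventional T cell library. Points are libraries, bars are group means and open circles are libraries with 0 reads; T cell libraries lie highest for every gene, and DC libraries with 0 reads are replicates 2 and 3.

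Across T cell libraries the members fell into a high and a low group. Gimap6, which binds the autophagy protein Gabarapl2, was highest at 2037 ± 382 CPM. Gimap4, which hastens T cell death once apoptosis has been triggered in mice, followed at 1428 ± 251 CPM, and Gimap3, a membrane-anchored relative of Gimap5, at 1224 ± 139 CPM. The other 5 averaged 389 ± 72.3 CPM for Gimap1, 295 ± 109 CPM for Gimap7, 235 ± 92.2 CPM for Gimap9, 154 ± 14.8 CPM for Gimap5 and 104 ± 35.2 CPM for Gimap8 (SD, n = 3). In this order the libraries of neighbours overlapped for Gimap4 and Gimap3, Gimap1 and Gimap7, Gimap7 and Gimap9, and Gimap9 and Gimap5. They did not overlap for Gimap6 and Gimap4, Gimap3 and Gimap1, or Gimap5 and Gimap8. In TDC the order began in the same way, with Gimap6, Gimap4, Gimap3 and Gimap1, and ended with Gimap8, Gimap5, Gimap9 and Gimap7, and each neighbour overlapped the next.

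TDC had less of every member than T cells did. All 8 genes were called lower in TDC by edgeR's quasi-likelihood test, with p-values adjusted by the Benjamini-Hochberg method over the 14708 genes tested and a threshold of 0.05, where 11.2% of tested genes were called lower. For all 8 the highest TDC library was below the lowest T cell library, as it was for 22.4% of tested genes. The log2 fold changes of TDC against T cells were -7.53 to -4.59, with a median of -5.67, beside a median of 0.14 over all tested genes. All 8 members passed the filter on low counts, each with its 3 T cell libraries above the cutoff of 0.653 CPM, while 0 to 2 DC libraries were above it. In TDC all 3 libraries were above it for 7 members and 1 library for Gimap7.

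Gimap5, the lysosomal member whose loss causes lymphopenia in rodents, had 5.03, 1.23 and 6.41 CPM in TDC, against 138, 168 and 155 CPM in T cells. The T cell libraries were tightly grouped and every TDC library was far below them. The log2 fold change was -5.19 (SE 0.96, adjusted p = 0.00235). Gimap1, needed by mature lymphocytes in mice, had 8.35, 3.51 and 12.7 CPM in TDC, against 307, 443 and 417 CPM in T cells. TDC replicate 2 was the lowest and replicate 3 the highest, and none came near the T cell libraries. Its log2 fold change was -5.57 (SE 0.95, adjusted p = 0.00145).

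Gimap6, the Gabarapl2-binding member, had 83.2, 28.3 and 72.1 CPM in TDC, against 2453, 1957 and 1701 CPM in T cells. It was the one member that was highest in TDC replicate 1, and its log2 fold change was -5.06 (SE 0.864, adjusted p = 0.00146). Gimap4 had 20.8, 7.53 and 50.4 CPM in TDC, against 1167, 1668 and 1451 CPM in T cells. The TDC libraries differed from each other several-fold and did not overlap the T cell libraries, with a log2 fold change of -5.77 (SE 1.17, adjusted p = 0.00384). Gimap3 had 11.6, 11.2 and 35.8 CPM in TDC, against 1075, 1246 and 1351 CPM in T cells. Its log2 fold change was -5.97 (SE 1.3, adjusted p = 0.0057), the one call among the 8 that was lost under another setting, with no filter on low counts (adjusted p = 0.0538). TDC replicate 3 weighed on both genes, and without it the log2 fold change was -6.71 for Gimap4 and -6.77 for Gimap3.

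Gimap7, whose human counterpart stimulates GTP hydrolysis by GIMAP2, had 2, 4 and 59 reads in the 3 TDC libraries, against 3094, 8507 and 4825 reads in the T cell libraries. This is 0.179, 0.223 and 4.40 CPM in TDC and 218, 420 and 249 CPM in T cells. TDC replicates 1 and 2 were thus close to the 3 reads that a count of 0 still allows, and replicate 3 carried nearly all of the TDC reads of Gimap7. The log2 fold change of -7.53 (SE 1.22, adjusted p = 0.00109) was the most negative of the 8, as it was in all 21 alternative settings, but its size rested on TDC replicate 3. It was -10.45 without that library, and -6.65 without replicate 2 of all groups. Gimap8, a large member with several GTP-binding domains, had 2.33, 1.23 and 9.39 CPM in TDC, against 134, 65.0 and 113 CPM in T cells. Its log2 fold change was -4.59 (SE 1.06, adjusted p = 0.00782). The call only just held without replicate 1 of all groups (adjusted p = 0.05, rounded up). For Gimap8, too, TDC replicate 3 stood above the other TDC libraries. Without that library the log2 fold change was -5.92, beyond the -5.24 of Gimap6, so its place as the member with the smallest shift rested on TDC replicate 3. Gimap9 had 4.04, 2.12 and 6.26 CPM in TDC, against 160, 338 and 208 CPM in T cells, with a log2 fold change of -5.83 (SE 0.958, adjusted p = 0.00117).

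**Figure D2:**
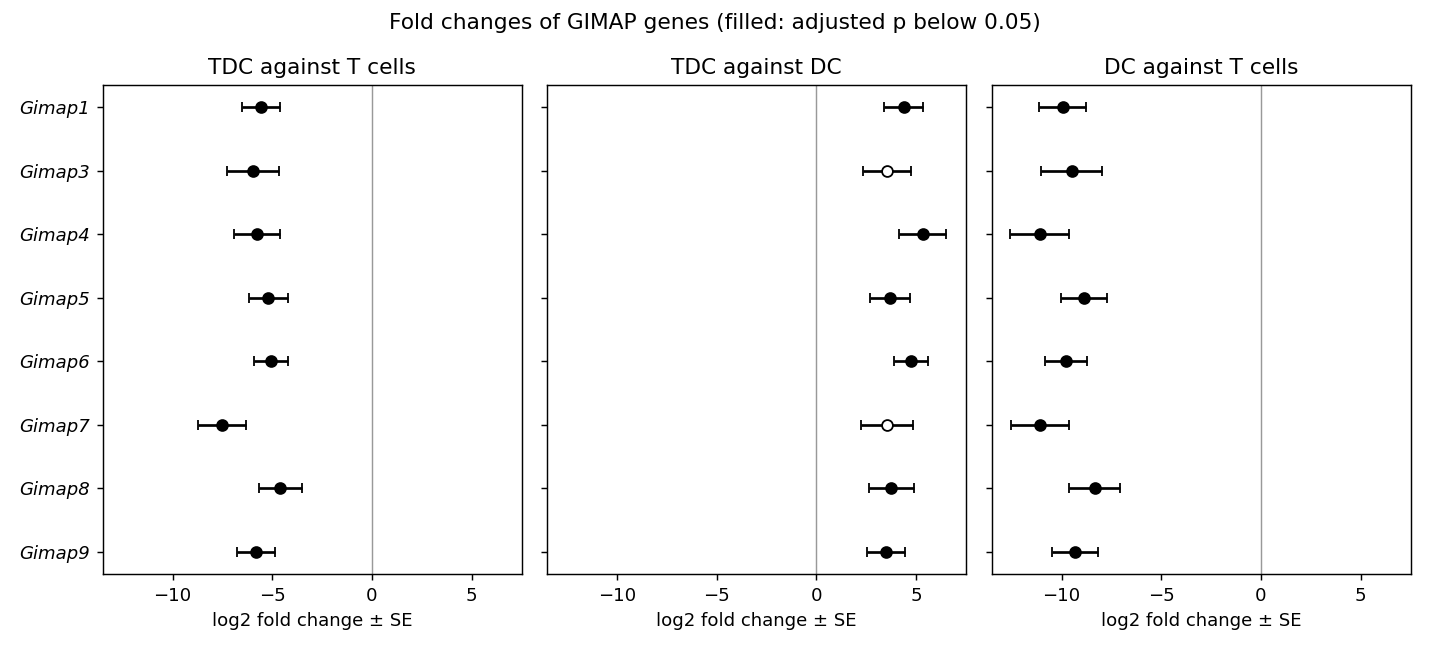
Log2 fold change and its SE (x axis) of each GIMAP gene (y axis) for TDC against T cells, TDC against DC and DC against T cells, from edgeR with 3 libraries a group. Filled points are called at an adjusted p below 0.05; Gimap3 and Gimap7 are the open points, in TDC against DC.

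The TDC libraries differed among themselves in a shared way. TDC replicate 3 was the highest TDC library for 7 of the 8 members and replicate 2 the lowest for 7 of the 8, the exceptions being Gimap6 and Gimap7 in turn. The family sum was 2.31%, 0.943% and 3.37% of the T cell mean in TDC replicates 1, 2 and 3. The sum of the 16 T cell receptor genes was 2.54%, 1.07% and 3.54% of its T cell mean in those libraries. All 16 of these genes had reads in every TDC library. All 16 were called lower in TDC than in T cells, where 11.2% of all tested genes were called lower. The median log2 fold change of the 16 was -5.42, beside 0.14 over all tested genes, and their lowest and highest were -5.95 and -4.32. The part of T cell RNA in the GIMAP values of TDC was not tested.

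As a share of the T cell mean, the TDC mean was 0.541% for Gimap7, 1.59% for Gimap3, 1.76% for Gimap9, 1.84% for Gimap4, 2.11% for Gimap1, 2.75% for Gimap5, 3.00% for Gimap6 and 4.16% for Gimap8. The median of the 8 was 1.97%, and that of the 16 T cell receptor genes was 2.33%, with a range of 1.62% to 5.01%. The share of Gimap7 lay below that of the lowest T cell receptor gene, Trbc1, and that of Gimap3 was close to it. By library, Gimap3 stood at 0.946%, 0.911% and 2.92% in TDC replicates 1, 2 and 3, beside 1.51%, 0.594% and 2.76% for Trbc1. Among the 7807 genes with at least 10 CPM in T cells, the median gene stood at 90.0% of its T cell level in TDC, and 0.128% (for Gimap7) to 2.91% (for Gimap8) of them stood at a lower share than the member.

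**Figure D3:**
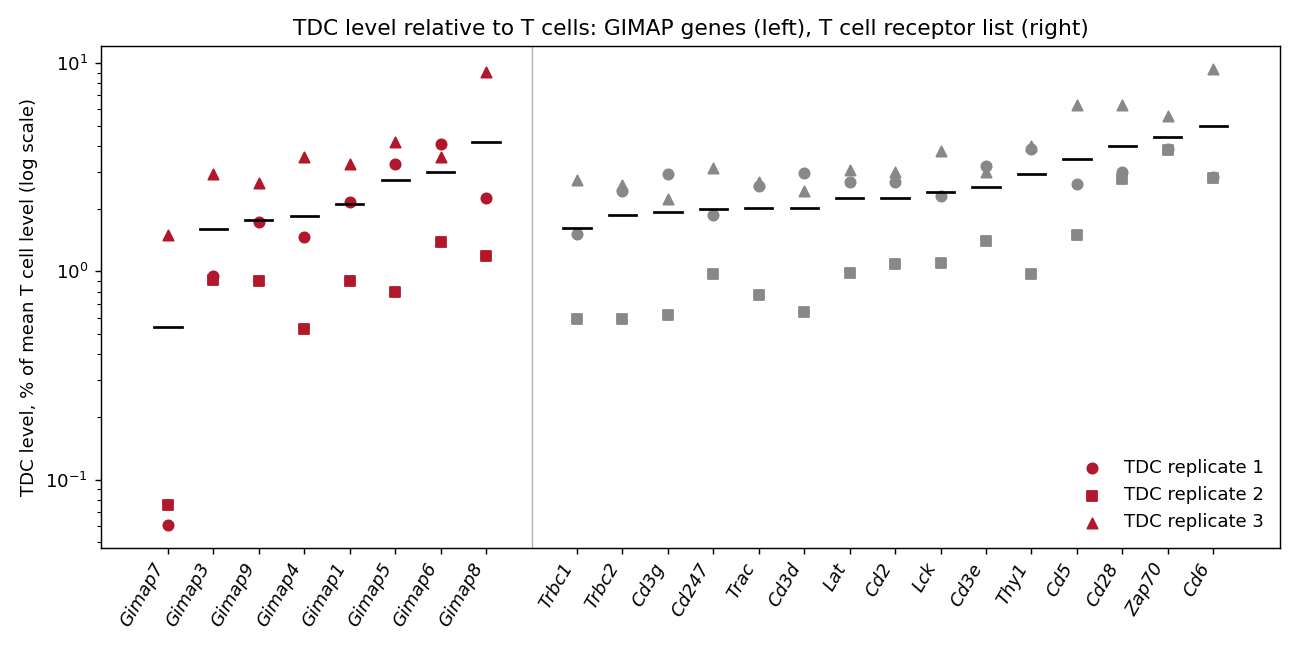
Level in each TDC library as a percentage of the mean T cell level (log scale) for the 8 GIMAP genes (left) and 15 of the 16 T cell receptor genes (right), each sorted by its mean (black bar). Gene means run over 0.541% to 4.16% for GIMAP genes and 1.62% to 5.01% for T cell receptor genes, and Gimap7 in TDC replicates 1 and 2 lies at 0.0608% and 0.0755%.

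The make-up of the GIMAP reads was compared within libraries, which removes the total amount. Gimap6 made up 61.4%, 51.2% and 36.5% of the family's reads in TDC, against 43.4%, 31.0% and 30.1% in T cells. These ranges overlapped, and an exact two-sided permutation test over the 3 against 3 libraries gave p = 0.2. Gimap7 made up 0.132%, 0.403% and 2.23% in TDC, against 3.85%, 6.66% and 4.40% in T cells. Gimap7 was the one member whose shares did not overlap between TDC and T cells, with an exact permutation p = 0.1, the smallest value that 3 against 3 libraries allow, and 0.533 after Benjamini-Hochberg adjustment over the 8 members. Gimap1 made up 6.16%, 6.35% and 6.46% in TDC, and 5.43%, 7.03% and 7.39% in T cells (exact permutation p = 0.7). The exact (Clopper-Pearson) 95% interval for Gimap7 in TDC replicate 1 was 0.016% to 0.478%, for counting error only, since reads without molecular identifiers are not independent molecules.

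**Figure D4:**
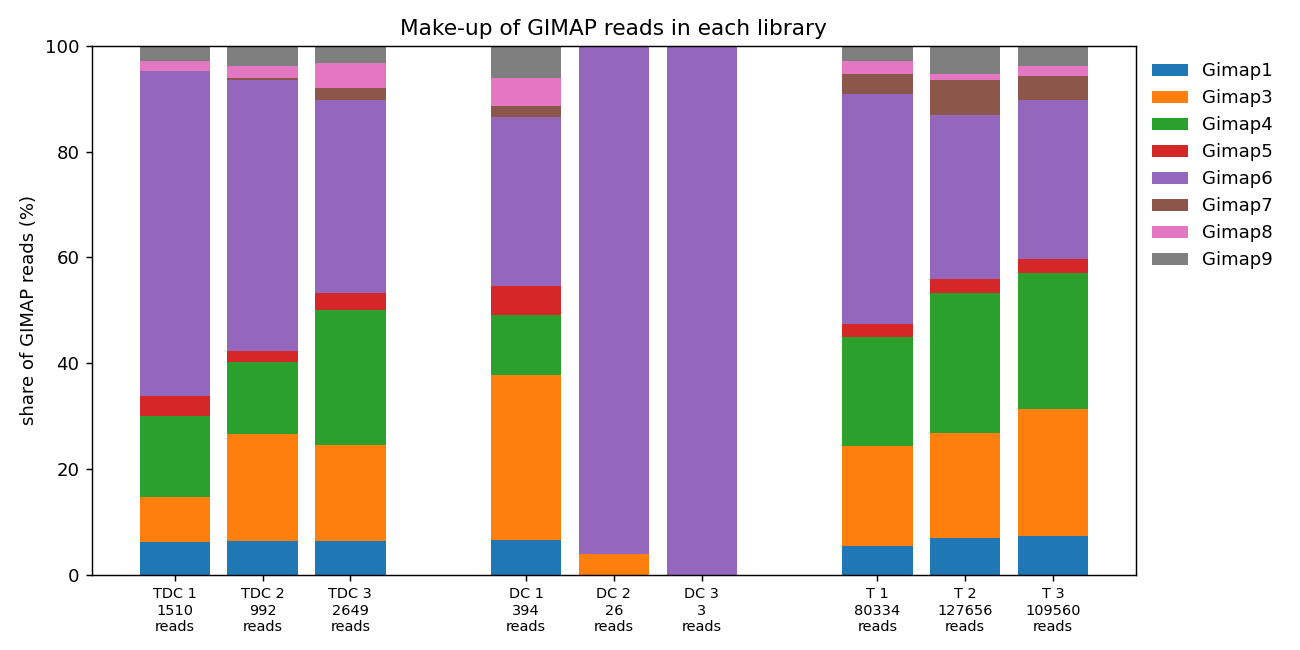
Share of the family's reads (%) taken by each GIMAP gene in every library, with the number of GIMAP reads under each bar. Gimap6 is the largest part of all TDC and T cell bars, Gimap7 is thinner in TDC than in T cell bars, and the bars of DC replicates 2 and 3 rest on 26 and 3 reads.

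Against DC, TDC had more of the family, with fewer members called. The test called 6 of 8 members higher in TDC, where 9.55% of tested genes were called higher. For 7 of 8 the lowest TDC library was above the highest DC library, as it was for 20.1% of tested genes. Gimap6 had 927, 508 and 967 reads in TDC, against 126, 25 and 3 reads in DC, and its log2 fold change was 4.73 (SE 0.863, adjusted p = 0.00526). Gimap4 had 232, 135 and 676 reads in TDC, against 45, 0 and 0 reads in DC, with a log2 fold change of 5.33 (SE 1.19, adjusted p = 0.0138). Every TDC library exceeded every DC library for both genes.

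Gimap1 (log2 change 4.37, SE of 0.973, adjusted p = 0.0137), Gimap5 (3.70, SE 0.992, adjusted p = 0.0315), Gimap9 (3.49, SE 0.954, adjusted p = 0.0344) and Gimap8 (3.75, SE 1.12, adjusted p = 0.049) were also called higher in TDC than in DC. Gimap3 had 129, 200 and 480 reads in TDC, against 123, 1 and 0 reads in DC, and was not called (log2 change 3.53, SE of 1.19, adjusted p = 0.0767). Gimap7 had 2, 4 and 59 reads in TDC, against 8, 0 and 0 reads in DC. Its libraries overlapped on the CPM scale and it was not called (log2 change 3.56, SE of 1.3, adjusted p = 0.101).

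One DC library set these values apart. DC replicate 1 held 394 of the 423 GIMAP reads of the DC group, which is 93.1% (exact 95% interval 90.3% to 95.4%). It had reads of all 8 members, DC replicate 2 of 2 members (Gimap6 and Gimap3), and DC replicate 3 of Gimap6 alone. A count of 0 allows up to 3 reads, or 0.209 CPM in DC replicate 2 and 0.179 CPM in DC replicate 3. Of the 16 T cell receptor genes, 9, 11 and 4 had reads in DC replicates 1, 2 and 3, and the list summed to 30.2, 30.3 and 30.6 CPM, of which Cd5 alone gave 19.6, 22.2 and 26.4 CPM. Some genes of the list were highest in DC replicate 1, with 158, 17 and 0 reads of Cd6, 21, 0 and 0 of Trbc2 and 9, 0 and 0 of Trbc1. Others were not, with 10, 28 and 0 reads of Cd3d, 0, 13 and 57 of Cd247, 0, 7 and 0 of Trac, and 0 of Cd3e and Cd3g in all 3 DC libraries. The 6 natural killer cell markers were as mixed and summed to 7.27, 8.64 and 1.37 CPM. Ncr1 had 42, 0 and 0 reads, Klrb1c 82, 0 and 0, Prf1 4, 0 and 0 and Klre1 62, 124 and 23, while Eomes and Gzma had 0 in all 3. The 8 B cell markers summed to 838, 912 and 731 CPM, with 109, 10 and 0 reads of Fcmr and 11, 0 and 0 of Pax5, but 454, 626 and 387 CPM of Ighm. The part of such cells in the GIMAP reads of DC replicate 1 was not tested.

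The count of 6 members depended on single libraries. Without DC replicate 1 it was 7, with Gimap3 added (adjusted p = 0.00143). It was 3 without TDC replicate 1, TDC replicate 3, DC replicate 2, DC replicate 3, T cell replicate 1 or T cell replicate 2, each left out alone. Gimap6 remained called in all 21 alternative settings, with adjusted p up to 0.0479. Its log2 fold change was 6.02 without DC replicate 1 and 4.01 without replicate 3 of all groups. The other members moved further. Without DC replicate 1 their log2 fold changes were 11.71 for Gimap4, 10.03 for Gimap1, 9.11 for Gimap8, 9.07 for Gimap5, 9.05 for Gimap9, 8.93 for Gimap3 and 7.68 for Gimap7. The remaining DC libraries then held 0 reads, or 1 for Gimap3, so these fitted values depend on the prior count and set no bound. Without TDC replicate 3 the values were 4.37 for Gimap4, 2.70 for Gimap3, 2.41 for Gimap8 and 0.61 for Gimap7. Without replicate 3 of all groups they were lower again for all 7, at 0.15 (Gimap7) to 3.86 (Gimap4). Gimap8 lost its call in 16 of the 21, Gimap9 in 13, Gimap5 in 10, and Gimap1 and Gimap4 in 3 each.

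DC had less of every member than T cells. All 8 were called lower in DC, where 8.41% of tested genes were called lower, and for all 8 the DC libraries were below the T cell libraries, as they were for 17.9% of tested genes. The log2 fold changes were -11.10 for Gimap4, -11.09 for Gimap7, -9.94 for Gimap1, -9.79 for Gimap6, -9.50 for Gimap3, -9.33 for Gimap9, -8.89 for Gimap5 and -8.34 for Gimap8. Adjusted p-values were 0.000106 to 0.00125. The DC mean was 0.0345% (Gimap7) to 0.258% (Gimap8) of the T cell mean, and these means rest mainly on DC replicate 1. The fitted sizes rest on it too. Without DC replicate 1 the log2 fold changes were -17.47 for Gimap4 to -13.69 for Gimap8 over the 7 members then left with 0 or 1 DC reads, values that depend on the prior count, and -11.06 for Gimap6. Both this comparison and TDC against T cells use the same T cell libraries.

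Other transcripts lie inside the cluster. Gimap1os, a noncoding RNA on the strand opposite Gimap1, had 1.53, 0.390 and 3.06 CPM in TDC, 0.115, 0 and 0 CPM in DC, and 81.2, 67.3 and 36.6 CPM in T cells. Like the members, it was lower in TDC than T cells (log2 change -5.23, SE of 0.829, adjusted p = 0.00094). It was also higher in TDC than in DC (log2 change 4.86, SE of 1.03, adjusted p = 0.0106), a call lost without replicate 1 or without replicate 3 of all groups. Without TDC replicate 3 these log2 fold changes were -6.09 against T cells and 3.98 against DC, and without DC replicate 1 the value against DC was 7.72, which depends on the prior count since the other DC libraries had 0 reads. In the GENCODE M21 annotation Gimap1os shares 1107 exonic bases with Gimap1, none of them in the last 500 exonic bases of Gimap1. The sources used here do not give the strand setting of the counting, so reads of the pair are uncertain. Of the 6 annotated genes other than members inside the cluster, 3 were tested. All 3 were called lower in TDC than in T cells, as were 11.2% of all tested genes. The other two were Gm28053, a readthrough transcript, with 0, 1 and 0 reads in TDC and 13, 23 and 14 reads in T cells (adjusted p = 0.0247), and 4833403J16Rik, a noncoding RNA, with 0, 3 and 0 reads in TDC and 38, 55 and 22 reads in T cells (adjusted p = 0.0308). Leaving out any 1 TDC or T cell library ended the call of Gm28053 (adjusted p = 0.0615 to 0.118), and leaving out any of these except TDC replicate 2 ended that of 4833403J16Rik (adjusted p = 0.0541 to 0.11).

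Gm28053 shares 198 exonic bases with Gimap1, 153 with Gimap5 and 81 with Gimap7, none in their last 500 exonic bases. Stretches of 50 bases were taken from the last 500 bases of every annotated transcript. Of these, 6.01% for Gimap1 and 3.53% for Gimap3 also occur in a gene other than the members, and 0 for the other 6. The genes sharing them with Gimap1 were Gm10310, Gm28053 and Gm49762, and Gm38409 shared them with Gimap3. Within their last 500 bases, some annotated Gimap1 transcripts thus hold sequence of the readthrough Gm28053. No such stretch is shared between members (0 for all 8).

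The genes flanking the cluster had other patterns. Beside Gimap3 lies Tmem176b, which encodes a multi-pass membrane protein of dendritic and other myeloid cells, with 1244, 2380 and 4358 reads in TDC, 18600, 10880 and 7292 reads in DC, and 58, 176 and 115 reads in T cells. Its levels averaged 189.7 ± 117 CPM in TDC and 635 ± 175 CPM in DC, against 6.23 ± 2.32 CPM in T cells (SD, n = 3 each). TDC exceeded T cells (log2 change 4.92, SE of 0.539, adjusted p = 9.34e-05) but stayed under DC (-1.74, SE 0.467, adjusted p = 0.0315), so its means stood in the reverse order to those of the GIMAP genes. The call against DC was lost without TDC replicate 1 (adjusted p = 0.0851), TDC replicate 2 (0.122), DC replicate 1 (0.0868) or DC replicate 2 (0.0683). Without TDC replicate 3 the log2 fold changes of Tmem176b were 4.27 against T cells and -2.41 against DC. Its partner Tmem176a averaged 96.1 ± 74.5 CPM in TDC and 337 ± 121 CPM in DC, against 7.57 ± 5.45 CPM in T cells (SD, n = 3 each), and exceeded its T cell level in TDC (log2 change 3.66, SE of 0.729, adjusted p = 0.0035), with a log2 fold change of 2.78 without TDC replicate 3 and 4.29 without T cell replicate 2. Its difference between TDC and DC was not called (log2 fold change -1.81, adjusted p = 0.105), except without TDC replicate 3 (adjusted p = 0.0374), without replicate 3 of all groups (0.0408), with DESeq2 (0.038) and with limma-voom (0.0167). On the side of Gimap8, Zfp775 and Lrrc61 were not called between TDC and T cells (adjusted p = 0.479 and 0.162). Repin1, a zinc finger gene, averaged 17.0 ± 8.58 CPM in TDC, against 1.30 ± 0.481 CPM in T cells (log2 change 3.71, SE of 0.925, adjusted p = 0.0114), and its call was lost without replicate 1 or without replicate 2 of all groups (adjusted p = 0.0594 and 0.0617). Of the 10 nearest genes that RefSeq annotates as protein-coding, 5 on each side, 5 were tested against T cells, and 3 of them were called higher and 0 lower in TDC, where 21.8% of all tested genes were called higher.

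**Figure D5:**
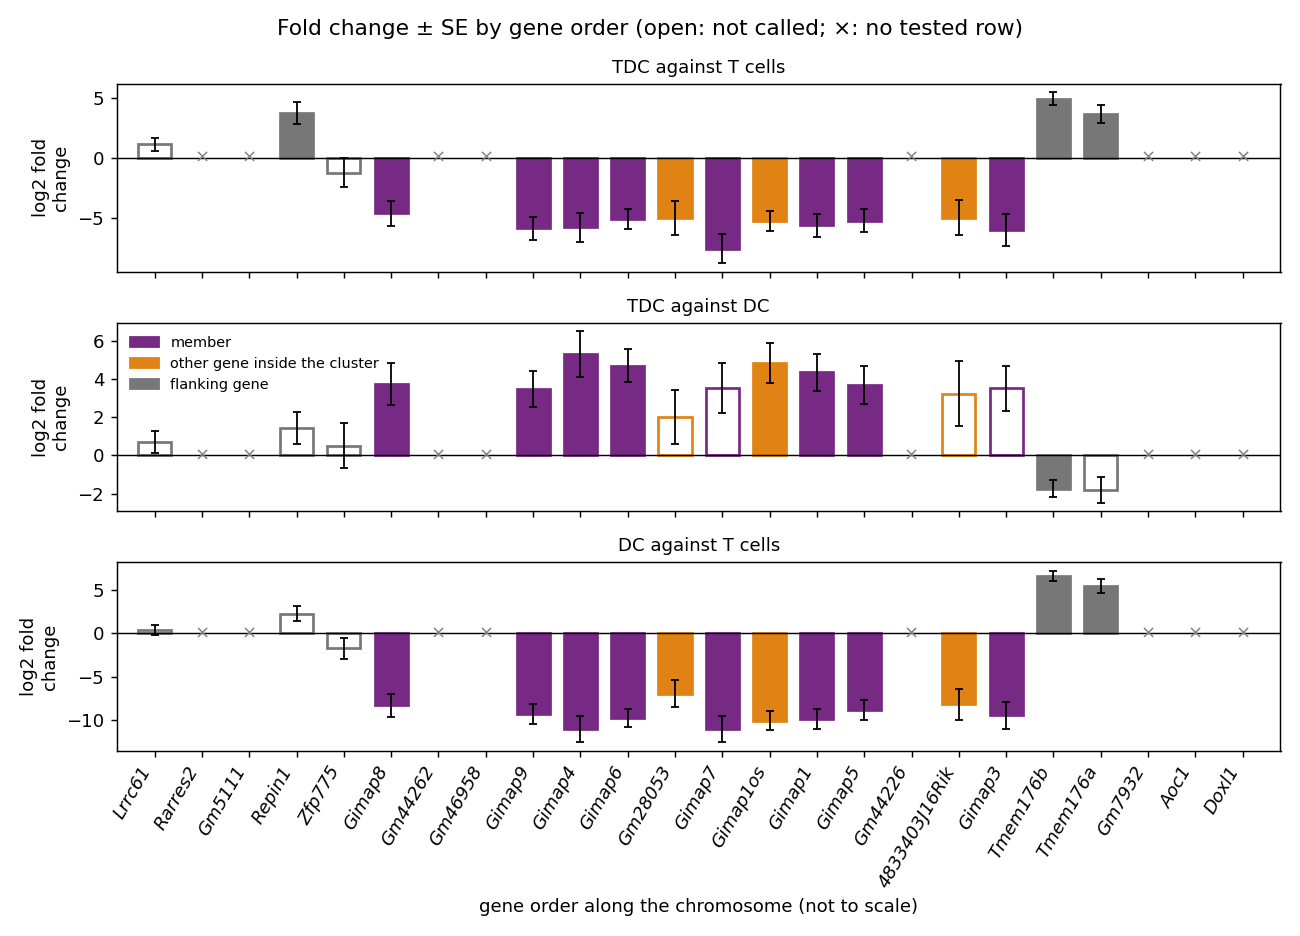
Log2 fold change and SE (y axis) for genes in their order along the chromosome (x axis, not to scale), for TDC against T cells, TDC against DC and DC against T cells. Filled bars are called and open bars are not; all tested genes between Gimap8 and Gimap3 lie below 0 against T cells, and the adjacent Tmem176b and Tmem176a lie above 0.

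Across the 9 libraries the 8 members varied together, with pairwise Pearson r of 0.909 to 0.997 on log2(CPM + 1). These libraries form 3 separate groups, so the values mainly describe the group differences. Of the 14700 other tested genes, 21 had an r over 0.99 with the mean profile of the members. The 5 most alike were Trbc1 (r = 0.9975), a constant gene of the T cell receptor β chain, Sidt1 (0.9951), Tdrp (0.9946), Hsd11b1 (0.9944), which encodes a glucocorticoid-activating enzyme, and Camk4 (0.9943), a calcium-dependent kinase of T cells. Trbc1 averaged 8.67 ± 5.81 CPM in TDC and 0.115 ± 0.199 CPM in DC, against 535 ± 94.8 CPM in T cells (SD, n = 3 each). Its DC reads were 9, 0 and 0, so they too lay in DC replicate 1.

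Genes tied to GIMAP functions were counted in the same comparison, where 11.2% of all tested genes were called lower and 21.8% higher in TDC than in T cells. GIMAP proteins have been linked to BCL-2 family proteins, which govern mitochondrial cell death. Of 15 Bcl-2 family genes 12 were tested, and 2 were lower and 2 higher in TDC than in T cells, with a median log2 fold change of 0.45 beside 0.14 over all tested genes, so that the share called higher was near that of all genes. The count of higher genes was 1 under most other settings, where Mcl1 lost its call. Bcl2, the anti-apoptotic member, had 10.8, 6.52 and 26.5 CPM in TDC, against 406, 312 and 221 CPM in T cells. It was lower in TDC (log2 change -4.42, SE of 0.56, adjusted p = 0.000227), with TDC replicate 3 highest as for most GIMAP genes and a log2 fold change of -5.21 without that library. Pmaip1, which encodes the pro-apoptotic protein NOXA, had 341, 303 and 379.5 CPM in TDC, against 20.0, 25.5 and 16.8 CPM in T cells, and was higher in TDC (log2 change 4.04, SE of 0.357, adjusted p = 2.25e-05). Bik, a pro-apoptotic gene at low level, had 0 reads in all TDC libraries and 14, 46 and 38 reads in T cells (adjusted p = 0.00997), a call lost without replicate 1 or without replicate 2 of all groups (adjusted p = 0.0537 and 0.105). Mcl1, an anti-apoptotic gene, averaged 963 ± 90.1 CPM in TDC, against 571 ± 85.5 CPM in T cells (SD, n = 3 each), and its adjusted p was 0.0468, and 0.721 where libraries were scaled by their size only.

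Gimap6 is linked to autophagy through Gabarapl2, a member of the ATG8 family that is attached to autophagosome membranes. Of 15 genes of ATG8 conjugation and autophagy, all tested, 0 were lower and 5 higher in TDC than in T cells, with a median log2 fold change of 0.22. The 5 of 15 stand beside 21.8% of all tested genes. With libraries scaled by their size only, 5 were lower and 3 higher, and without T cell replicate 1 or T cell replicate 3 alone 3 were higher. Gabarapl2 itself had 37.8, 24.7 and 27.9 CPM in TDC and 63.1, 108 and 39.2 CPM in DC, against 43.5, 69.5 and 44.0 CPM in T cells. All TDC libraries lay below all T cell libraries, but the difference was not called (log2 fold change -0.80, SE 0.413, adjusted p = 0.166), except where libraries were scaled by their size only (-1.40, adjusted p = 0.0119), which lowered the median of all genes by 0.607. Its relative Gabarapl1 had 129, 117 and 87.4 CPM in TDC, against 2.95, 3.01 and 1.75 CPM in T cells, with a log2 fold change of 5.43 (SE 0.41, adjusted p = 8.76e-06). Atg7, the enzyme that activates ATG8 proteins, was higher in TDC (log2 change 2.07, SE of 0.349, adjusted p = 0.00131), as was the cargo receptor gene Sqstm1 (1.60, SE 0.299, adjusted p = 0.00236). The call of Sqstm1 was lost without replicate 1 of all groups (adjusted p = 0.0512).

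The interferon-inducible GTPases are another group of immune GTPases. Of 21 tested, 5 were lower and 7 higher in TDC than in T cells, beside 11.2% and 21.8% of all tested genes, with a median log2 fold change of 0.16. The count of lower genes was 2 without TDC replicate 2 or T cell replicate 2, and 3 without DC replicate 1, T cell replicate 1 or T cell replicate 3. Gbp4 averaged 21.1 ± 4.03 CPM in TDC and 62.9 ± 8.39 CPM in DC, against 200.2 ± 41.6 CPM in T cells, and was lower in TDC than T cells (log2 change -3.25, SE of 0.317, adjusted p = 4.16e-05). Gbp8 averaged 590.1 ± 92.3 CPM in TDC and 103 ± 20.9 CPM in DC, against 144 ± 31.3 CPM in T cells, and exceeded its T cell level in TDC (log2 change 2.04, SE of 0.306, adjusted p = 0.000615). Irgm2 averaged 83.1 ± 33.6 CPM in TDC and 7.52 ± 3.50 CPM in DC, against 8.91 ± 3.37 CPM in T cells (SD, n = 3 each), with a log2 fold change of 3.22 for TDC against T cells (SE 0.534, adjusted p = 0.00123). Tgtp1 was lower in TDC than T cells (log2 change -6.02, SE of 0.722, adjusted p = 0.000162), but it has a near-identical copy, Tgtp2, and the split of reads between them is uncertain.

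Genes of naive T cells and recirculation were a further comparison. Of 16 tested, 13 were lower and 0 higher in TDC than in T cells, beside 11.2% and 21.8% of all tested genes. The median log2 fold change was -3.69 for these 16 and 0.14 over all tested genes. The sum of the 16 genes was 17.1%, 14.0% and 15.2% of the T cell mean in TDC replicates 1, 2 and 3. The library order seen for GIMAP genes, with replicate 3 highest, was thus not present in it. Ccr7, the lymph node homing receptor, had 69.7, 58.3 and 125 CPM in TDC, 1295, 979 and 978 CPM in DC, against 1509, 1132 and 941 CPM in T cells, so that DC and T cells overlapped. Lef1, a T cell transcription factor gene, had 191, 106 and 328 reads in TDC, 0, 0 and 2 reads in DC and 8401, 15462 and 11411 reads in T cells. Satb1, a chromatin organizer gene, averaged 28.7 ± 16.3 CPM in TDC and 55.8 ± 11.1 CPM in DC, against 593 ± 109.6 CPM in T cells (SD, n = 3 each). Unlike the GIMAP genes, Ccr7 was lower in TDC than in DC (log2 change -3.69, SE of 0.39, adjusted p = 0.000364).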

How the data were processed

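Raw read counts per gene were deposited by the authors as 1 table with a column for each of the 9 libraries. Per the labels' protocols, RNA was extracted with ReliaPrep kits and libraries were made with the Lexogen stranded QuantSeq protocol. Per the submitters' processing notes, FastQC, MultiQC, Trimmomatic, STAR and featureCounts were used, with no versions given. The notes name the build hg38, a human one, although the samples are mouse, and the sources used here do not name the annotation, so no gene coordinates were taken from the table. Nothing says that replicates were separate beyond their pools of mice, and p-values measure the spread between these libraries.

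The counts were analysed with edgeR 4.0.16 in R 4.3.3: TMM factors, filterByExpr (minimum count 10, minimum total 15), 1 robust quasi-likelihood fit of the 9 libraries by group leaving 6 residual degrees of freedom, and p-values adjusted by Benjamini-Hochberg over 14708 genes. The common biological coefficient of variation was 0.588. DESeq2 1.42.0, limma-voom (limma 3.58.1), other scalings and filters, fits of 2 groups and left-out libraries were alternatives. Scripts were tested on simulated data.

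The members and gene lists were chosen with earlier results of these data known. Genes open to naming were the members, the other genes inside the cluster and the 5 nearest on each side that RefSeq annotates as protein-coding. Also open were the 5 tested genes most correlated with the members, and up to 4 genes from every list. The latter were those of smallest adjusted p in TDC against T cells. Not all of these genes are named in the text, and Dpp4, Cd5 and Tgtp2 were named outside this rule. Gabarapl2 and the marker genes given as reads for DC replicate 1 were named after their values were seen. Promoters came from RefSeq (GRCm38.p6) and exon overlaps from GENCODE M21.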

Additional observations from a re-analysis of the deposited data

How the results depend on the processing

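All 8 members were called lower in TDC than in T cells under 20 of the 21 alternatives, the count being 7 with no filter on low counts, and all 8 lower in DC than in T cells under every one of the 21. No member changed direction in any comparison. The count called higher in TDC than in DC, 6 as reported, was 1 with no filter on low counts and 1 with only these 2 groups in the fit, where Gimap6 alone was called and Gimap7 was not tested. Leaving out libraries gave 1 to 7, with 1 without replicate 3 of all groups and 3 without replicate 2 of all groups. DESeq2's Wald test gave 6 and limma-voom 7. Of the 167 single values of that comparison, 119 kept their side of the threshold, 45 lost the call and 3, all for Gimap3, gained it. The cause was not tested. Scaling by library size only shifted the all-gene median log2 fold change by -0.607 for TDC against T cells, and relative to that median the members' median stayed at -5.81 to -5.74 over the scalings. Counts over all genes moved more: 1654 genes were called lower in TDC than in T cells, against 652 to 3321 under the alternatives, 1404 higher in TDC than in DC, against 548 to 2015, and 1237 lower in DC than in T cells, against 552 to 1886. Same-numbered libraries of the groups share a code in the labels whose meaning is not given. Their deviations from the group means correlated at -0.529 to 0.363, over 0.1 in 3 of 9 pairs, and 3 of 9 libraries correlated best with their own number. With 3 libraries a group, these values cannot decide whether the numbers mark a pairing. With the replicate number as a block, the calls were 8 lower in TDC than in T cells, 4 higher in TDC than in DC and 8 lower in DC than in T cells. Depth limits Gimap7 in TDC replicates 1 and 2, with 2 and 4 reads, and in DC replicates 2 and 3 all members other than Gimap6, with 0 or 1 reads each.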
